A study of Mus musculus with 12 samples.

Results

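Oviducts of ICR mice at diestrus, the last stage of the estrous cycle, were compared with oviducts at metestrus, the stage just before it. ICR is an outbred stock, and all animals were 6 weeks old. The comparison used 3 arrays of diestrus oviduct and 3 of metestrus oviduct, chosen by their stage labels and array columns, which is 6 of the 12 arrays of a series that also holds 3 arrays of proestrus and 3 of estrus. Total RNA of the whole oviduct was labelled with biotin and hybridised to a 1-colour Illumina bead array. No treatment, transgene or mutation is named for either stage. Neither the origin of the 3 arrays of a stage (different mice, pooled mice or 1 RNA hybridised again) nor the way an animal's stage was determined is given by the labels, so the p-values measure the spread between arrays and no more.

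The oviduct carries the egg from the ovary toward the uterus, and its lining is made of ciliated cells and of secretory cells that release glycoproteins. After ovulation the corpora lutea of the ovary form and secrete progesterone. In the mouse they are short-lived unless mating occurs, and metestrus and diestrus together form the luteal part of the cycle, at the end of which estrogen begins to climb again. Progesterone is removed in tissues by 20alpha-hydroxysteroid dehydrogenase, and estradiol is made from estrone by several 17beta-hydroxysteroid dehydrogenases. The lining also serves as an immune barrier that makes antimicrobial proteins and protease inhibitors.

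The defining genes of the tissue were present at both stages. Ovgp1, the oviduct-specific glycoprotein of the secretory cells, had log2 intensities of 15.50, 15.10 and 14.95 on the diestrus arrays and 15.78, 14.82 and 14.95 on the metestrus arrays. Of 21 motile cilia genes tested, 19 were detected on every diestrus array and 19 on every metestrus array. All values below are log2 intensities after background correction and quantile normalization, and differences are diestrus minus metestrus, so that a positive difference means a higher signal at diestrus. Probes differ in how well they bind, so levels are compared within a gene and not between genes.

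The replicate 1 arrays stood apart from the others before any comparison was made. Their median raw intensity was 149 at diestrus and 139 at metestrus, against 99.3 to 105 on the 4 arrays numbered 2 and 3, and they detected 57.6% of the probes at diestrus and 58.1% at metestrus, against 48.9% to 51.8%. After normalization, the SD of the log2 difference between replicates 2 and 3 over the 5072 brighter genes was 0.23 at diestrus and 0.12 at metestrus. Between replicate 1 and the others it was 0.33 to 0.36 at diestrus and 0.54 to 0.55 at metestrus, so metestrus replicate 1 stood farthest from its group. The results are therefore given from a fit of the 4 stage means without a block and, where it changes a call, from the same fit with the array set (replicate 1, or replicates 2 and 3) as a block. The 4 stages are equally represented in both sets, so the block leaves every difference as it is and alters the standard error, whose median over genes was 0.19 without the block and 0.12 with it.

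Few genes differed between diestrus and metestrus. Of 10144 genes tested, 7 passed an adjusted p threshold of 0.05 without a block, which is 0.069% of them. Of these, 4 were higher at diestrus (0.0394%) and 3 were lower (0.0296%). With the array set as a block 34 genes passed (0.335%), 19 of them higher (0.187%) and 15 lower (0.148%). With the replicate number as a block the count was 30 (0.296%), and 29 genes passed in both blocked fits. The 7 genes passed in all 3 fits. The median difference over all genes was 0.00, the quartiles were -0.10 and 0.10, and 8 genes had a difference over 1 and 5 a difference under -1. In the fit without a block, the other steps of the cycle gave 1.02% (estrus against proestrus), 2.46% (metestrus against estrus) and 4.86% (proestrus against diestrus). These steps share arrays with one another and their counts were not tested against each other. In such whole-tissue RNA, fewer cells of a type and less RNA per cell cannot be told apart.

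With single arrays left out, all 7 differences without a block kept their direction. That of H2-K1 ran from 1.05 to 1.15 and that of H2-Ea from -2.04 to -1.69. The calls were lost for some of the arrays, except that of Akr1c18. It passed whichever of the 6 arrays was left out, with adjusted p from 0.0040 to 0.014. Gulo did not pass without diestrus replicate 1 (adjusted p = 0.059) or 2 (0.071) or metestrus replicate 2 (0.072). Mup2 did not pass without diestrus replicate 1, 2 or 3 or metestrus replicate 2 (0.071 to 0.12), nor Hsd17b7 without diestrus replicate 2 or 3 or metestrus replicate 2 or 3 (0.072 to 0.12). H2-Ea, H2-K1 and Serpina1d passed only when metestrus replicate 1 was the array left out, and otherwise had adjusted p from 0.063 to 0.15. The count of genes was 2 without diestrus replicate 1, 1 without diestrus replicate 2, 2 without diestrus replicate 3, 13 without metestrus replicate 1, 1 without metestrus replicate 2 and 4 without metestrus replicate 3. With the array set as a block, all 7 passed whichever array was left out, and the highest adjusted p was 0.024, for H2-K1.

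**Figure D1:**
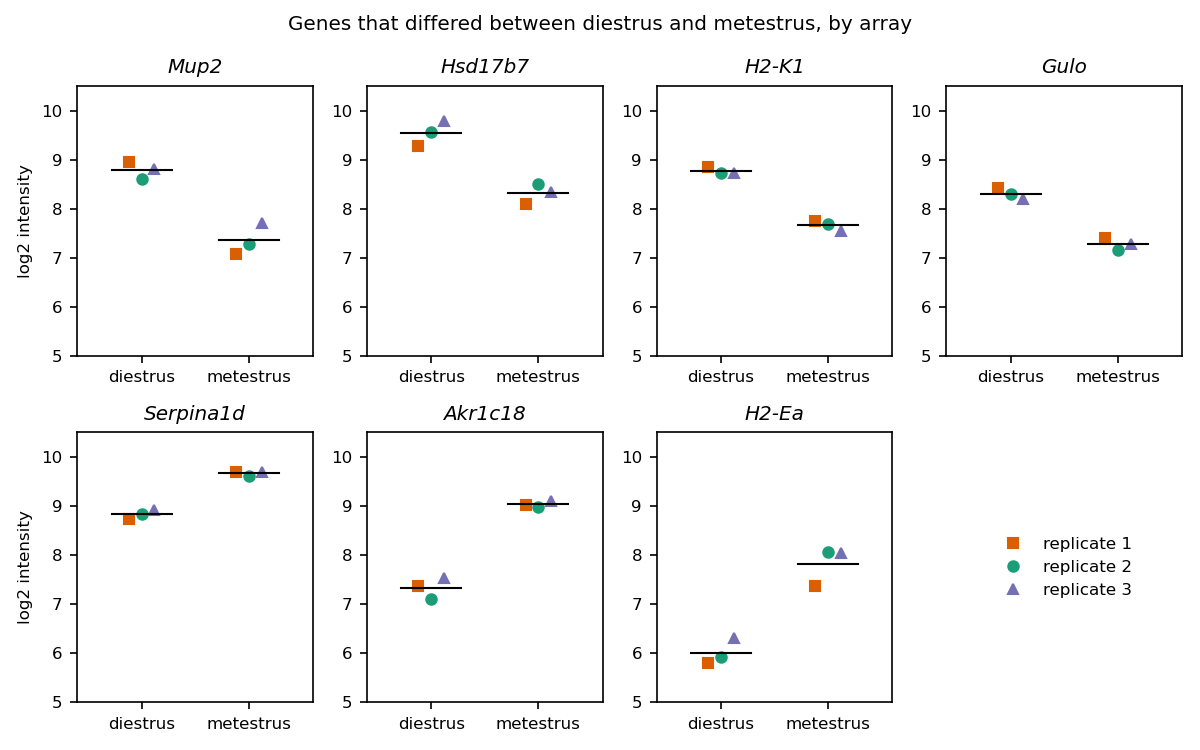
Log2 intensity of the 7 genes that passed without a block, on each diestrus array (left in each panel) and each metestrus array (right). Points are arrays, marked by replicate number, and bars are the means of 3 arrays. In each of the 7 panels the diestrus and metestrus points do not overlap. Mup2, Hsd17b7, H2-K1 and Gulo lie higher at diestrus, and Serpina1d, Akr1c18 and H2-Ea lie lower.

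Enzymes of steroid conversion gave 2 of the 7 differences, in opposite directions. Akr1c18 encodes 20alpha-hydroxysteroid dehydrogenase, which turns progesterone into a metabolite that binds its receptor poorly. It had log2 intensities of 7.38, 7.11 and 7.53 at diestrus, against 9.02, 8.99 and 9.10 at metestrus. The 3 diestrus arrays lay well below the 3 metestrus arrays, and the gene fell 3.25-fold, a log2 difference of -1.70 ± 0.15 (SE, adjusted p = 0.0011). Through the cycle, from proestrus on, its stage means were 7.0, 10.9, 9.04 and 7.34, with diestrus next to proestrus in the order of levels. Stage means here and below are a description and were not tested.

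Hsd17b7, whose product reduces estrone to estradiol and also takes part in cholesterol synthesis, was the steroid enzyme that rose. Its log2 intensity was 9.28, 9.55 and 9.78 at diestrus and 8.09, 8.51 and 8.34 at metestrus. The groups did not overlap, and the rise was 2.34-fold (log2 difference 1.22 ± 0.17, adjusted p = 0.021). From proestrus to diestrus the 4 stage means were 8.91, 9.23, 8.31 and 9.54, so metestrus was the lowest of the 4 stages and diestrus the highest.

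These were the only members of their lists to pass. Of 15 genes of steroid synthesis and inactivation, 1 rose and 1 fell in each fit, and the list's median difference was -0.03. Hsd17b1, the main estradiol-forming enzyme of the granulosa cells of the follicle, had 6.03, 6.83 and 7.07 at diestrus and 5.66, 6.35 and 6.40 at metestrus. These ranges overlapped, the difference was 0.50 ± 0.28, and the gene did not pass. Of 18 genes of cholesterol biosynthesis, Hsd17b7 alone passed. The other 17 lay between -0.33 (Msmo1, a sterol demethylase) and 0.20 (Idi1, an isomerase of the early pathway), with a list median of -0.02.

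Markers of ovarian cells are given beside these enzymes, since ovarian cells make steroids. Of 20 genes on the ovarian granulosa, theca and luteal cell list, 12 were tested and none passed in any of the 3 fits. The median difference was 0.07. Their summed linear intensity ran from 941 to 1119 on the diestrus arrays and from 887 to 1108 on the metestrus arrays, so these ranges overlapped. Fshr, Amh, Nr5a1, Hsd3b1, Insl3 and Lhx9 were not detected at either stage. Inha, the inhibin alpha subunit, had 6.95, 7.27 and 6.95 at diestrus and 5.91, 6.45 and 6.69 at metestrus, a difference of 0.70 ± 0.20 that did not pass (adjusted p = 0.058 with the array set as a block).

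The receptors of the ovarian steroids did not pass. Pgr, the progesterone receptor, had log2 intensities of 7.09, 7.47 and 7.49 at diestrus and 7.89, 7.63 and 7.80 at metestrus. The diestrus arrays all lay below the metestrus arrays, but the difference of -0.42 ± 0.14 did not pass (adjusted p = 0.28 with the array set as a block and 0.34 with the replicate number as one). Esr1, the main estrogen receptor, had 11.31, 11.01 and 11.41 at diestrus and 11.75, 11.06 and 11.08 at metestrus, a difference of -0.05 ± 0.20 over overlapping groups. The difference in Ovgp1, whose values stand above, was 0.00 ± 0.27. Of 11 steroid receptors and coregulators tested, 0 passed in any of the 3 fits.

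Targets of the hormones moved singly. Of 18 progesterone and glucocorticoid targets, 0 passed without a block and 1 fell with the array set as a block, around a list median of -0.02. The one that fell was Il13ra2, the decoy receptor of interleukin 13, with 5.36, 5.63 and 6.09 at diestrus and 6.44, 6.52 and 7.07 at metestrus (log2 difference -0.98, adjusted p = 0.041 with that block). The groups did not overlap, and the probe was detected on 2 of the 3 diestrus arrays. Cdkn1c, an inhibitor of cyclin-dependent kinases, had 11.19, 11.44 and 11.32 at diestrus and 11.89, 11.79 and 11.85 at metestrus, and its difference of -0.53 ± 0.14 did not pass (adjusted p = 0.067 with the array set as a block). Of 21 estrogen-induced genes of the tract, 0 passed without a block and Ramp3 fell with it, by 0.56 on the log2 scale (adjusted p = 0.0499, against 0.085 with the replicate number as a block). Ramp3, a partner of the receptor for adrenomedullin, had 8.44, 8.83 and 8.52 at diestrus and 8.85, 9.27 and 9.35 at metestrus, so its arrays just failed to overlap. Its other probes, detected on all 3 arrays of each stage, gave -0.06 and -0.45, each over groups that overlapped.

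**Figure D2:**
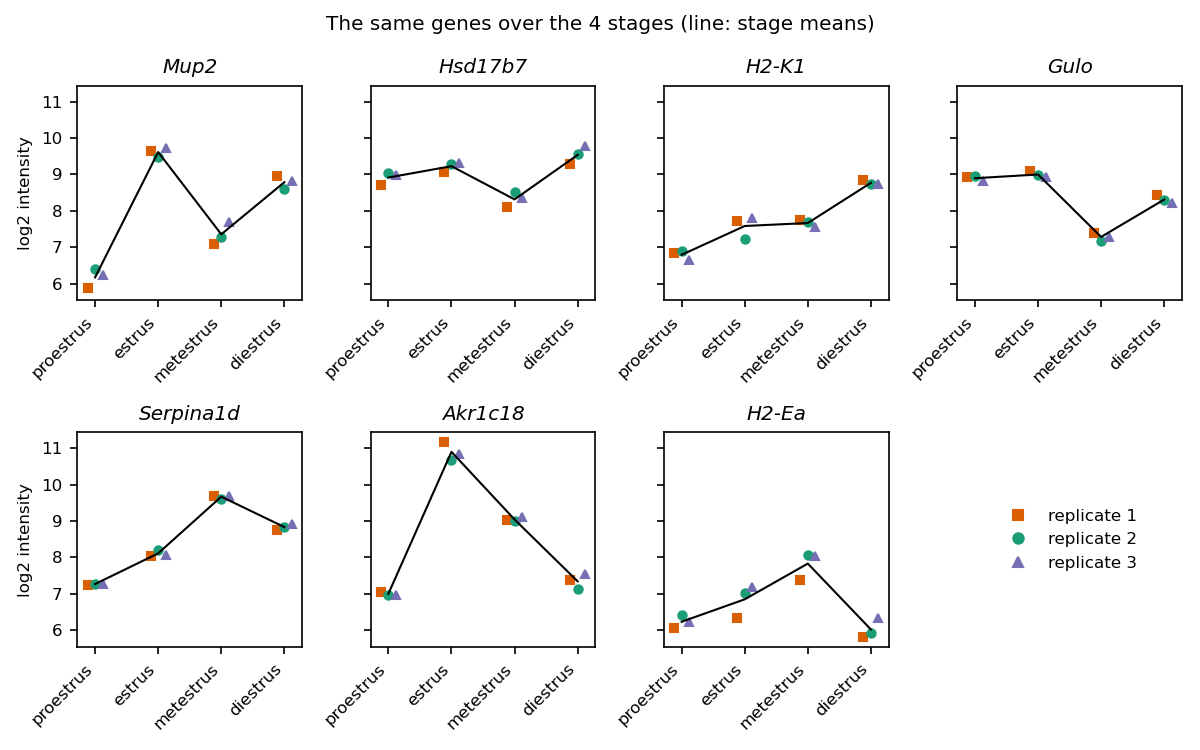
Log2 intensity of the same 7 genes over the 4 stages in the order of the cycle. Points are arrays, marked by replicate number, and the line joins the stage means. Akr1c18 peaks at estrus (10.9), H2-Ea and Serpina1d at metestrus (7.83 and 9.67), and H2-K1 and Hsd17b7 at diestrus (8.77 and 9.54).

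Histocompatibility genes gave a further 2 of the 7, again in opposite directions. H2-Ea, a class II alpha chain that displays peptides to helper T cells, had log2 intensities of 5.80, 5.92 and 6.32 at diestrus and 7.37, 8.07 and 8.04 at metestrus. Every diestrus array was lower than every metestrus array, and the gene fell 3.51-fold (log2 difference -1.81 ± 0.25, adjusted p = 0.021). H2-K1, a class I heavy chain that displays peptides to cytotoxic T cells, had 8.84, 8.73 and 8.73 at diestrus, against 7.75, 7.69 and 7.55 at metestrus. The arrays of a stage lay close together and the groups did not overlap, and the rise was 2.15-fold (log2 difference 1.11 ± 0.15, adjusted p = 0.021). A second H2-K1 probe, detected on 2 diestrus arrays and 1 metestrus array, gave a difference of 0.21. Probe sequences were not given, so whether H2 probes read the transcripts of other H2 genes could not be examined. ICR is outbred, and differences between animals in these genes were not tested.

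The partners of H2-Ea did not follow it. Of 9 class II presentation genes tested, 1 fell and none rose in each of the 3 fits, and 7 of the 9 differences were positive, with a median of 0.17. H2-Eb1, the beta chain that pairs with H2-Ea, had 8.71, 9.70 and 9.44 at diestrus and 8.35, 9.24 and 9.04 at metestrus, a difference of 0.41 that did not pass. H2-Aa, the alpha chain of the other class II molecule, had 5.92, 5.69 and 6.42 at diestrus and 6.77, 6.74 and 6.95 at metestrus, and its difference of -0.80 ± 0.20 over groups that did not overlap fell short of the threshold as well (adjusted p = 0.13 with the array set as a block). Its partner H2-Ab1 had a difference of 0.28 ± 0.15, and the invariant chain gene Cd74 one of 0.14. Of 13 class I presentation genes, 1 rose (H2-K1) and 12 had positive differences, with a median of 0.19. Psmb9, an immunoproteasome subunit, had a difference of 0.52 ± 0.19 and H2-D1, another class I heavy chain, one of 0.31 ± 0.17, and neither passed.

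Cells that carry these molecules are given by their markers. Of the macrophage list 9 of 15 genes were tested, of the dendritic cell list 4 of 11, of the B and plasma cell list 3 of 12 and of the T and NK cell list 6 of 16. None of them passed in any of the 3 fits, and the list medians were -0.01, 0.10, 0.16 and 0.10. The summed linear intensity of macrophage genes ran from 5832 to 5958 at diestrus and from 5765 to 6153 at metestrus, and that of dendritic cell genes from 407 to 524 at diestrus and from 352 to 474 at metestrus. For B and plasma cell genes it ran from 324 to 404 at diestrus and from 280.5 to 398 at metestrus, and for T and NK cell genes from 2043 to 2362 at diestrus and from 1994 to 3262 at metestrus. The diestrus and metestrus ranges of all these lists overlapped. A sum is set mostly by its brightest genes. The mean log2 intensity of each list overlapped as well, as for T and NK cell genes (6.42 to 6.58 at diestrus, 6.13 to 6.78 at metestrus). Itgax, Flt3, Xcr1 and Clec9a of the dendritic cells, Ms4a1, Cd79a and Pax5 of the B cells and Cd3d, Cd4 and Cd8a of the T cells were not detected at either stage.

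Interferon response genes had higher values at diestrus. Interferons act through Stat and Irf transcription factors on a set of antiviral genes whose promoters often hold an interferon-stimulated response element. Of 18 such genes tested, all 18 had a positive difference, against 50.3% of all genes, with a median of 0.37, against 0.00. In 9 of the 18 all diestrus arrays lay above all metestrus arrays, which was so for 285 of all genes (2.81%). None passed without a block and 1 rose with the array set as a block. The mean log2 intensity over the 18 genes was 9.18, 9.13 and 9.18 on the diestrus arrays and 8.67, 8.76 and 8.80 on the metestrus arrays, so the groups did not overlap. The median difference within replicate numbers 1, 2 and 3 was 0.40, 0.37 and 0.34, and over the alternative settings it ran from 0.27 to 0.40. In 8 of 21 settings it moved by more than the spread between replicates. From proestrus to diestrus the list's stage means were 8.74, 8.94, 8.74 and 9.16. The mean log2 intensity of other lists also kept the arrays of the stages apart. Higher at diestrus were class I presentation (8.72 to 8.91, against 8.45 to 8.59 at metestrus) and motile cilia (9.63 to 9.70, against 9.53 to 9.59). So were secretory cell genes (9.79 to 9.85, against 9.73 to 9.76) and secreted defence proteins (9.39 to 9.45, against 8.97 to 9.31). Oocyte genes (6.09 to 6.58, against 5.50 to 5.94) and the 5 hepatocyte genes tested (6.13 to 6.34, against 5.93 to 6.10) were also higher. Serine protease inhibitors were lower (8.95 to 9.02, against 9.11 to 9.12), as were extracellular matrix genes (10.72 to 10.85, against 10.93 to 11.02) and fibroblast genes (9.93 to 10.01, against 10.08 to 10.24). The summed linear intensities of class I presentation, motile cilia, secretory cell and secreted defence genes overlapped between the stages.

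Ifit3, an interferon-induced antiviral protein, was the member that passed. It had log2 intensities of 9.58, 9.93 and 9.87 at diestrus and 8.33, 8.72 and 8.90 at metestrus. The groups did not overlap, and the rise was 2.21-fold (log2 difference 1.14, SE 0.10 and adjusted p = 2.0e-04 with the array set as a block). Without a block the adjusted p was 0.23. The 2 further Ifit3 probes gave 1.11 and 1.34. Isg15, a ubiquitin-like modifier, had 8.80, 8.36 and 8.69 at diestrus and 7.21, 8.0 and 7.98 at metestrus. Its difference was 0.89 ± 0.20 over groups that did not overlap, and it did not pass (adjusted p = 0.071 with that block). Rsad2, the antiviral enzyme viperin, had 9.19, 9.16 and 9.38 at diestrus and 8.61, 8.81 and 8.89 at metestrus, a difference of 0.47 ± 0.15 (adjusted p = 0.078 with that block).

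Further members are named here after their values were seen. Irf7, a transcription factor of the response, had 7.08, 7.43 and 7.25 at diestrus and 5.61, 6.78 and 6.83 at metestrus, a difference of 0.85, with metestrus replicate 1 the lowest array. Oasl2, an oligoadenylate synthetase-like protein, had 12.25, 11.96 and 12.14 at diestrus and 11.88, 11.20 and 11.41 at metestrus, a difference of 0.62 (adjusted p = 0.054 with that block). At the low end, Ifit2 and Irf8 had differences of 0.03 and 0.04. Ifit1, Oas1a and Mx1 were not detected at either stage.

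The immunity-related GTPases Igtp and Irgm2, which are induced by interferon gamma, were not on the list and passed with the array set as a block. They were picked from the genes called in these data and are named after their values were seen. Igtp had 9.67, 9.81 and 9.73 at diestrus and 8.99, 9.38 and 9.07 at metestrus (log2 difference 0.59, adjusted p = 0.041). Irgm2 had 10.15, 10.43 and 10.31 at diestrus and 9.64, 9.80 and 9.83 at metestrus (0.54, adjusted p = 0.013). In each the groups did not overlap. With the replicate number as a block, Irgm2 passed (adjusted p = 0.029) and Igtp did not (0.073).

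The promoters of 4 of these genes are shown because the letters of the response element can be seen in them. Ifit3, Igtp and Irgm2 passed with the array set as a block, and Isg15 did not pass in any of the 3 fits. The windows come from RefSeq (mouse build GRCm38.p6) and run 5′ to 3′ on the strand of the gene, from 250 bases before to 50 bases after its start. Capitals mark each match to GAAANNGAAA, the core of the interferon-stimulated response element, on either strand. Ifit3 lies at chr19:34583279-34583578 on the plus strand, Isg15 at chr4:156200769-156201068 on the minus strand, Igtp at chr11:58199306-58199605 and Irgm2 at chr11:58214727-58215026, both on the plus strand.
Ifit3: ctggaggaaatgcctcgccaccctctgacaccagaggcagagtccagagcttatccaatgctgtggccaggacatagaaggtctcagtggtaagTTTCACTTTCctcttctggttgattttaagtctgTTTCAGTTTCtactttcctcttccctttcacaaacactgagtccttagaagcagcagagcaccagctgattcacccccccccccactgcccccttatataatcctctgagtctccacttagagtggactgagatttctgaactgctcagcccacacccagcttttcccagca
Isg15: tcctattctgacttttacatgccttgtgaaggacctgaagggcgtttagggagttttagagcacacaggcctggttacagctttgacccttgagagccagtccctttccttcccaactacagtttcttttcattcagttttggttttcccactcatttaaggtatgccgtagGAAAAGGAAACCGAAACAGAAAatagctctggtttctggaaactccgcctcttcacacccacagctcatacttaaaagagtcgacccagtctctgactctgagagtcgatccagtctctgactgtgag
Igtp: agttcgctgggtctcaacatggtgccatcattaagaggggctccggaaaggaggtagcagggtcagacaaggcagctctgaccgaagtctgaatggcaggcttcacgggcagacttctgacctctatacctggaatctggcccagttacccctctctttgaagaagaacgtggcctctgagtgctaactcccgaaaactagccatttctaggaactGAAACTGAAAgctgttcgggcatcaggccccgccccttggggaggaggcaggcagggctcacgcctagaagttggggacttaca
Irgm2: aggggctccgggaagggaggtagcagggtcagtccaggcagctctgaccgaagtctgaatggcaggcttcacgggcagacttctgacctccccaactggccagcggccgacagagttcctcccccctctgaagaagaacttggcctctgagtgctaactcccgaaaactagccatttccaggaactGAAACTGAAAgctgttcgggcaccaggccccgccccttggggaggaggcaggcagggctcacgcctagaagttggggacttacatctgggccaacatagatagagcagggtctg

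Ifit3 has 2 matches, both on the opposite strand, which begin 156 and 122 bases before the start. Isg15 has 3 overlapping matches that begin 78, 72 and 66 bases before it. Igtp and Irgm2 share the same 10 letters, 34 and 64 bases before their starts, within stretches of nearly the same sequence. Over the windows of the genes tested, the motif occurred in 297 of 8216 genes (3.61%), and over all windows in 1131 of 32851 (3.44%). Of the 18 interferon response genes, 13 had a window, and 7 of these held the motif (53.8%), namely Ifit3, Isg15, Rsad2, Stat2, Gbp2, Gbp3 and Bst2. A match describes the letters and says nothing about binding at these stages. The windows of H2-K1 and Ccl8 held no match.

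**Figure D3:**
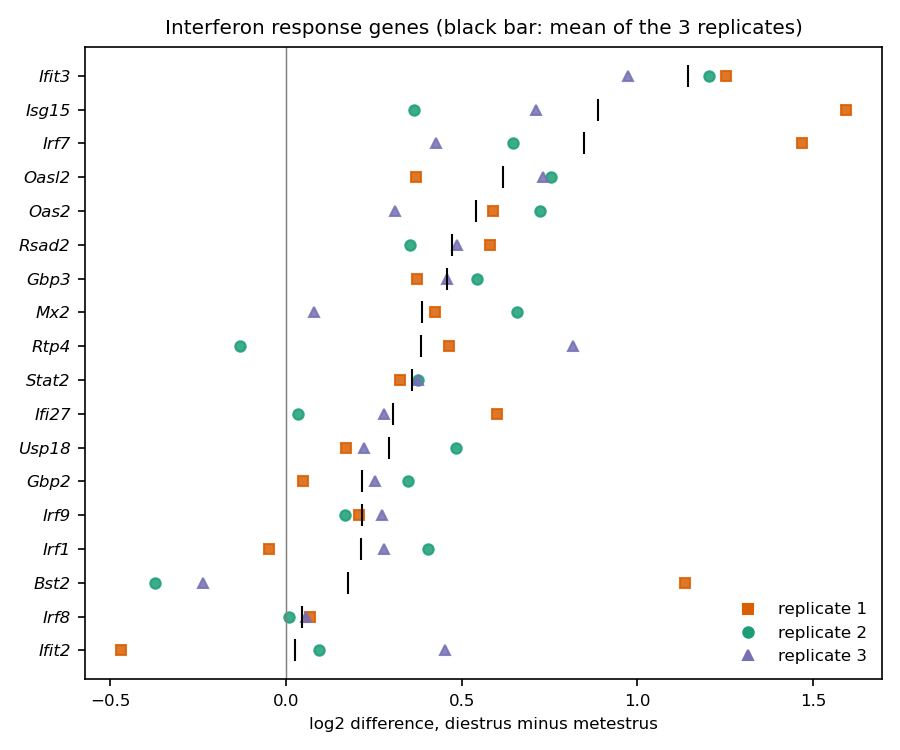
Log2 difference, diestrus minus metestrus, of the 18 interferon response genes tested. Coloured points are the differences within replicate numbers 1, 2 and 3, and black bars their mean, which is above 0 for each of the 18. Points below 0 occur in Rtp4, Irf1, Bst2 and Ifit2.

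Secreted defence proteins and chemokines gave single genes. Slpi, a leukocyte protease inhibitor of mucosal fluids, had 8.07, 8.13 and 8.36 at diestrus and 6.33, 7.29 and 7.46 at metestrus. The groups did not overlap, metestrus replicate 1 was the lowest array, and the gene rose 2.24-fold with the array set as a block (log2 difference 1.16, adjusted p = 0.013) but did not pass without it (0.31). Ccl8, a chemokine that draws monocytes, had 8.39, 8.30 and 8.73 at diestrus and 6.46, 7.61 and 7.48 at metestrus. It rose 2.45-fold with that block (log2 difference 1.29, adjusted p = 0.014, against 0.23 without it), and here too metestrus replicate 1 was lowest. Both genes lost that call when diestrus replicate 1 or 3 was left out (highest adjusted p 0.089 for Slpi and 0.093 for Ccl8).

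Of 17 secreted defence genes Slpi alone passed, the median was 0.17, and 13 of the 17 differences were positive. Camp, the antimicrobial cathelicidin, had 6.30, 6.13 and 6.85 at diestrus and 5.66, 5.75 and 5.32 at metestrus, a difference of 0.85 ± 0.20 that did not pass (adjusted p = 0.079 with the array set as a block). Of 20 chemokines Ccl8 alone passed, with a median of 0.01. Cxcl12, a chemokine of the stroma, had a difference of -0.40 ± 0.14 over groups that did not overlap and did not pass. Its other detected probes each gave -0.19 over groups that overlapped. Camp is also a neutrophil gene. Of 15 genes on the neutrophil list 11 were tested and none passed in any of the 3 fits, with a median of 0.15. Their summed linear intensity, set mostly by the brightest genes, ran from 48819.5 to 52622 at diestrus and from 48389 to 64119.7 at metestrus. Their mean log2 intensity ran from 7.85 to 8.07 at diestrus and from 7.44 to 7.90 at metestrus. The neutrophil genes Mmp8, Cxcr2 and Il1r2 were not detected at either stage. Their part in these results was not tested.

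Serpina1d, a protease inhibitor of the alpha-1-antitrypsin family, fell, and it was the only member of its family to pass. It had log2 intensities of 8.74, 8.84 and 8.91 at diestrus and 9.70, 9.62 and 9.69 at metestrus. The arrays of each stage lay close together and did not overlap, and the fall was 1.79-fold (log2 difference -0.84 ± 0.11, adjusted p = 0.018). Its stage means from proestrus to diestrus were 7.26, 8.11, 9.67 and 8.83, with metestrus the highest. Serpina1b had 10.06, 9.60 and 9.18 at diestrus and 10.55, 10.34 and 10.18 at metestrus, a difference of -0.74 ± 0.21 (adjusted p = 0.051 with the array set as a block), and its other probe gave -0.65. Serpina1a and Serpina1c had differences of -0.41 and -0.33 over groups that did not overlap. Neither passed. The Serpina1 genes are near-identical copies, so their probes may read each other's transcripts and are not independent.

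Of 13 serine protease inhibitors tested, 1 fell without a block, and 1 fell and 1 rose (Slpi) with it. In 11 of the 13 the difference was negative, and the median was -0.13. Serpina1 genes are among the 13, so neither this count nor the list's mean log2 intensity rests on independent genes alone.

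Gulo and Mup2 were the remaining genes that rose without a block. Gulo encodes the enzyme of the last step of vitamin C synthesis. It had log2 intensities of 8.43, 8.30 and 8.20 at diestrus and 7.40, 7.16 and 7.29 at metestrus. The groups lay far apart, and the rise was 2.04-fold (log2 difference 1.03 ± 0.12, adjusted p = 0.011). Its stage means from proestrus to diestrus were 8.90, 9.0, 7.28 and 8.31, with metestrus the lowest. Of 23 antioxidant and vitamin C genes, Gulo alone passed in each fit, and the median was 0.05. Txn1, a thioredoxin, had 9.62, 8.52 and 9.22 at diestrus and 8.51, 8.49 and 8.45 at metestrus, a difference of 0.64 ± 0.34 that was within the spread of the diestrus arrays.

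Mup2, one of the major urinary proteins that carry pheromones, had 8.95, 8.60 and 8.81 at diestrus, against 7.09, 7.27 and 7.70 at metestrus. Every diestrus array was higher, and the gene rose 2.70-fold (log2 difference 1.43 ± 0.19, adjusted p = 0.018). Over the cycle, beginning with proestrus, its stage means were 6.17, 9.61, 7.35 and 8.79. The major urinary protein genes are near-identical, so the signal cannot be assigned to Mup2 alone, and a second Mup2 probe was not detected at either stage.

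Mup2, Gulo and the Serpina1 genes are best known from liver. Of 15 hepatocyte genes 5 were tested, with a median difference of 0.05, and 1 rose with the array set as a block. That gene was Cyp2e1, a cytochrome P450 that oxidises ethanol, with 10.40, 10.03 and 10.43 at diestrus and 9.47, 9.36 and 9.28 at metestrus (log2 difference 0.92, adjusted p = 0.0036). Its groups did not overlap. The summed linear intensity of the list ran from 1202 to 1547 at diestrus and from 795 to 873 at metestrus. Cyp2e1 makes most of that sum, and Alb, Apoa1, Apoa2, Apoh, Ahsg, Fga, Fgb, Ttr and Tat were not detected at either stage.

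**Figure D4:**
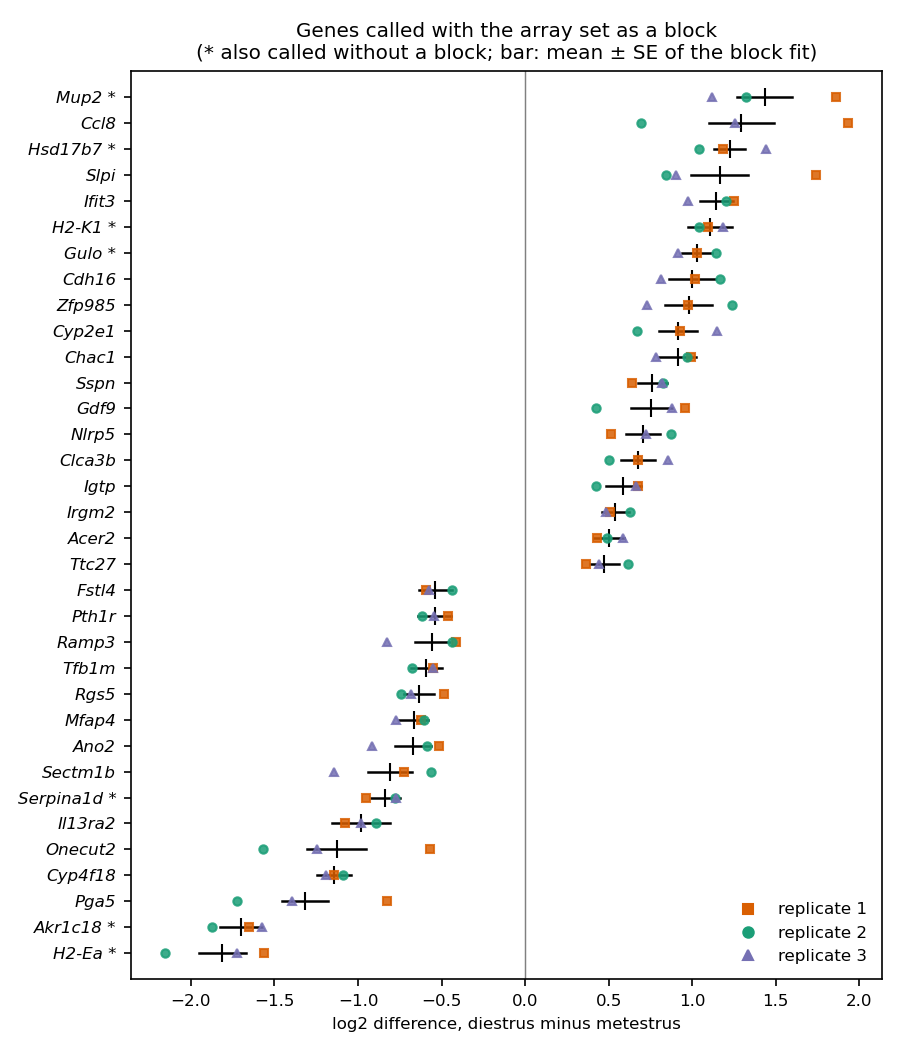
Log2 difference, diestrus minus metestrus, of the 34 genes that passed with the array set as a block. Coloured points are the differences within replicate numbers 1, 2 and 3, and black bars the mean ± SE of that fit. Asterisks mark the 7 genes that also passed without a block. The 19 genes with bars above 0 were higher at diestrus and the 15 below 0 lower.

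The genes that passed with the array set as a block alone are described in order of their direction. In 17 of the 34 all diestrus arrays lay above all metestrus arrays, in 14 all lay below, and in 3 the groups overlapped. Over all genes 2.81% lay above in this way and 3.17% below, or 5.98% (607 genes) in either direction. Among the genes that rose, Chac1, which degrades glutathione, had 9.52, 9.85 and 9.95 at diestrus and 8.53, 8.88 and 9.17 at metestrus (log2 difference 0.91, adjusted p = 0.0034). Cdh16, a cadherin of kidney and other epithelia, had 7.96, 8.64 and 8.30 at diestrus and 6.94, 7.48 and 7.49 at metestrus (1.0, adjusted p = 0.0090). Both kept their groups apart. Sspn, a membrane protein of the dystrophin complex, had 8.91, 9.31 and 9.41 at diestrus and 8.27, 8.49 and 8.59 at metestrus (0.76, adjusted p = 0.0021), with the 3 replicate differences between 0.64 and 0.83. Zfp985, a zinc finger gene, was not detected at metestrus and was at least 1.23-fold higher at diestrus, where it had 5.80, 5.84 and 5.90. Its adjusted p of 0.012 belongs to the fitted log2 difference of 0.98, which uses metestrus values below detection, and not to that bound.

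Genes that fell with the block included enzymes and a transcription factor. Pga5, a pepsinogen, had 6.73, 6.91 and 7.07 at diestrus and 7.56, 8.63 and 8.46 at metestrus, a 2.49-fold fall (log2 difference -1.31, adjusted p = 9.8e-04). Its stage means were 6.08 at proestrus and 6.13 at estrus, so metestrus was the highest stage. Cyp4f18, a cytochrome P450 that breaks down leukotriene B4, had 6.61, 7.24 and 6.95 at diestrus and 7.75, 8.33 and 8.15 at metestrus, a 2.21-fold fall (log2 difference -1.14, adjusted p = 2.7e-04). A second Cyp4f18 probe was detected on 0 of 3 diestrus arrays and 3 of 3 metestrus arrays, so it has only a bound at diestrus. In both genes the groups did not overlap. Onecut2, a transcription factor of endoderm, was not detected at diestrus and was at least 1.43-fold lower there, with 5.16, 6.42 and 6.36 at metestrus. Its adjusted p of 0.019 belongs to the fitted log2 difference of -1.13, which uses diestrus values below detection, and not to that bound.

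Single genes of other roles also fell with the block. Ano2, a calcium-activated chloride channel, had 6.26, 6.50 and 6.38 at diestrus and 6.77, 7.08 and 7.30 at metestrus (log2 difference -0.67, adjusted p = 0.024). It was the only one of 20 ion and water transport genes to pass, and their median was -0.03. Mfap4, a protein of elastic microfibrils, had 10.47, 10.54 and 10.47 at diestrus and 11.09, 11.15 and 11.25 at metestrus. The SD was 0.04 at diestrus and 0.08 at metestrus, the groups did not overlap, and the difference of -0.67 had an adjusted p of 0.0059 with the block and 0.058 without it. Rgs5, a regulator of G protein signalling known from pericytes, had 7.91, 7.47 and 7.43 at diestrus and 8.40, 8.21 and 8.11 at metestrus (-0.64, adjusted p = 0.0090). Sectm1b fell by 0.81 (adjusted p = 0.024) and Tfb1m, a methyltransferase of mitochondrial ribosomal RNA, by 0.59 (adjusted p = 0.018), each over groups that did not overlap.

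Matrix and stromal lists lay slightly below 0 beside Mfap4 and Rgs5. None of 20 extracellular matrix genes passed in any of the 3 fits, and 16 had negative differences, with a median of -0.17. Of 12 fibroblast genes 11 were negative, with a median of -0.21, and of 12 endothelial genes 11 were negative, with a median of -0.13, but none passed. The summed linear intensity of fibroblast genes ran from 26036 to 35656 at diestrus and from 29252 to 49184 at metestrus, and that of endothelial genes from 8453 to 11119.9 at diestrus and from 9016 to 11647 at metestrus. The fibroblast ranges overlapped, as did the endothelial ones. The sum of extracellular matrix genes did not, with 72930 to 76013 at diestrus and 78290 to 102068 at metestrus. The mean log2 intensity of fibroblast genes did not overlap either, with 10.01, 9.96 and 9.93 at diestrus and 10.24, 10.08 and 10.16 at metestrus. Metestrus replicate 1 was farthest from its group in the fit as a whole. The part of stromal cells in the falls of Mfap4 and Rgs5 was not tested. Of 13 smooth muscle genes none passed, and the median was -0.07.

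Oocyte genes had higher values at diestrus. Of 19 oocyte genes on the array 12 were tested, and all 12 had a positive difference, against 50.3% of all genes. The median was 0.62, with 0.61, 0.30 and 0.80 in replicate numbers 1, 2 and 3. Of the 12, 7 were detected on every diestrus array and 5 on every metestrus array. Of the 19, 8 were detected on no diestrus array and 11 on no metestrus array, so the differences partly set signal against background. Over the alternative settings the median ran from 0.33 without background correction to 0.70 over the 5 genes detected on all 6 arrays. It was 0.34 without a detection filter, 0.41 with an offset of 50 and 0.37 without metestrus replicate 1. None passed without a block and 2 rose with the array set as a block, where 0.187% of all genes rose. Gdf9, a growth factor of the oocyte, had 6.78, 7.40 and 7.72 at diestrus and 5.82, 6.97 and 6.84 at metestrus, and these groups overlapped (log2 difference 0.75, adjusted p = 0.024 with that block). Nlrp5, of the maternal complex of the egg, had 6.38, 7.24 and 7.32 at diestrus and 5.87, 6.37 and 6.60 at metestrus (0.70, adjusted p = 0.012), with overlap through diestrus replicate 1. The summed linear intensity of the list ran from 1036 to 1447 at diestrus and from 687 to 874 at metestrus, so the lowest diestrus array was above the highest metestrus array. Over the cycle, beginning with proestrus, the mean log2 intensity of the list was 5.61, 7.34, 5.79 and 6.30. Zp1, Zp2, Mos, Npm2, Dppa3, H1f8, Rfpl4 and Bcl2l10 were not detected at diestrus or metestrus, and a gene detected at estrus alone could enter the list. The part of oocyte RNA in the other results was not tested.

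The remaining genes that passed with the array set as a block, like Igtp, Irgm2, Gdf9 and Nlrp5 above, fall outside the rule for named genes. They are listed after their values were seen. Clca3b (0.68), a relative of chloride channel regulators, Acer2 (0.50), a ceramidase, and Ttc27 (0.47) rose. Clca3b was not detected at metestrus, and was at least 1.05-fold higher at diestrus. Fstl4 (-0.54) and Pth1r (-0.54), the parathyroid hormone receptor, fell, and the groups of Pth1r overlapped. With the replicate number as a block Fstl4 (adjusted p = 0.083), Pth1r (0.073) and Ttc27 (0.085) did not pass. The call of Acer2, Fstl4 and Ttc27 was lost when any of the 6 arrays was left out. By contrast 14 genes kept their call with that block whichever of the 6 arrays was left out, namely the 7 genes that passed without a block and Ifit3, Chac1, Cyp2e1, Sspn, Pga5, Cyp4f18 and Mfap4.

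The other genes lost the call with that block for some of the arrays. Rgs5 lost it without metestrus replicate 2 (adjusted p = 0.052) and Cdh16 without diestrus replicate 1 (0.060). Zfp985 lost it without diestrus replicate 1 or 3 (highest adjusted p 0.062) and Nlrp5 without diestrus replicate 3 or metestrus replicate 2 (0.062). Irgm2 lost it without diestrus replicate 1 or metestrus replicate 2 or 3 (0.072), and Clca3b without diestrus replicate 1 or 3 or metestrus replicate 3 (0.087). Gdf9, Il13ra2, Onecut2 and Tfb1m lost it for 4 of the 6 arrays, with adjusted p up to 0.11, 0.18, 0.10 and 0.10. Ano2, Igtp, Pth1r, Ramp3 and Sectm1b lost it for 5 of the 6, with adjusted p up to 0.10, 0.17, 0.16, 0.17 and 0.11. The count with that block ran from 18 without diestrus replicate 1 to 37 without metestrus replicate 1.

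Other processes gave no call. None of 21 cell cycle genes, 21 motile cilia genes, 16 secretory cell genes, 16 fatty acid genes, 13 prostaglandin genes, 15 clock genes, 16 immediate-early genes, 20 chaperone and unfolded protein response genes, 17 metalloproteinase genes, 16 retinoid genes, 12 insulin-like growth factor genes, 11 complement genes or 21 respiratory chain genes passed in any of the 3 fits. Their medians ran from -0.18 (chaperones) to 0.14 (respiratory chain). Motile cilia genes had positive differences in 18 of 21, with a median of 0.11 and replicate medians of 0.17, 0.14 and 0.08. Ccno, which drives the amplification of centrioles in ciliated cells, had 9.40, 9.50 and 9.80 at diestrus and 9.07, 9.23 and 9.28 at metestrus, a difference of 0.37 ± 0.14 over groups that did not overlap. The respiratory chain median rested on replicate number 1, with 0.59, -0.17 and 0.09 over the 3 numbers. Myc, a growth-promoting transcription factor, had 5.35, 5.53 and 5.49 at diestrus and 5.79, 5.96 and 6.10 at metestrus, a difference of -0.50 ± 0.19, while Atf3, a stress-induced one, had a difference of 0.63 ± 0.21. Neither passed.

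Red blood cell genes varied most between arrays. The 3 of them that were tested had a median of -0.63, with 0.14, -1.27 and -0.60 in replicate numbers 1, 2 and 3. That median ran from -0.97 without metestrus replicate 1 to -0.39 without background correction. Hba-a1, an alpha globin, had 12.16, 12.07 and 12.31 at diestrus and 11.82, 13.29 and 13.31 at metestrus, so the 2 metestrus arrays numbered 2 and 3 were high, and Epb42 and Slc4a1 were not detected at either stage. Adipocyte genes had a median of 0.10, mesothelial genes one of -0.05 and mast cell and eosinophil genes one of 0.24, with 0 of 6, 0 of 9 and 0 of 6 past the test.

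**Figure D5:**
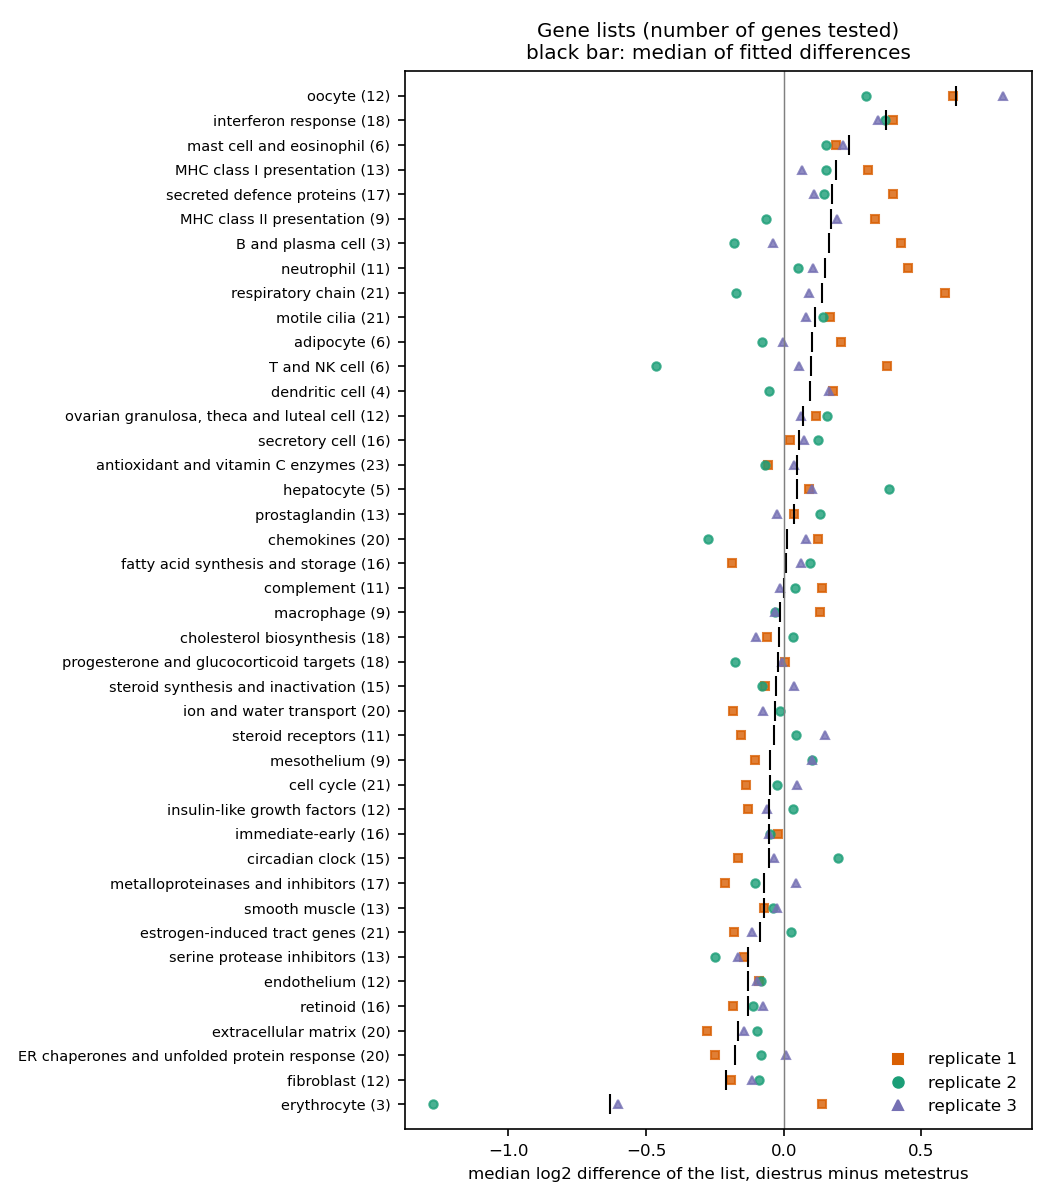
Median log2 difference, diestrus minus metestrus, of each of the 42 gene lists, with the number of genes tested in parentheses. Black bars are the medians of the fitted differences and coloured points the medians within replicate numbers 1, 2 and 3. The oocyte list (0.62) and the interferon response list (0.37) are highest, and the erythrocyte list (-0.63) is lowest with its replicates far apart.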

How the data were processed

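Per the file headers, the deposited raw file gives 25697 probes with 1 intensity column per array, each followed by a column of the detection p-value. The lowest raw intensities lay between 52.3 and 57.9, so no background had been subtracted from these deposited values. A second deposited matrix holds intensities that the authors had background-subtracted and normalized, and it was used as an alternative. The sources used here do not name the software of that step. Gene names came from the platform annotation, in which 23978 probes had 1 symbol, 1719 none and 0 several, and 23962 of the named probes matched a RefSeq gene identifier.

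Raw intensities of all 12 arrays were processed by neqc in limma 3.58.1 under R 4.3.3, that is normexp correction by detection p-value, quantile normalization, offset 16 and log2. Probes with a detection p under 0.01 on at least 3 arrays were kept (14778, of which 837 had no gene name), and the brightest probe on average stood for each of the 10144 genes. limma (lmFit and eBayes) fitted 1 mean per stage over the 12 arrays, with 8 residual degrees of freedom and no block, and p-values were adjusted over all genes by Benjamini-Hochberg. The script was tested on simulated data. No count of molecules lies behind these values, and 3 arrays a stage limit the precision.

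For a probe not detected on any array of a stage, the bound ("at least") sets the mean of the other stage against the lowest signal among detected probes, or the probe's own signal where that was higher. Summed intensities are sums of normalized linear values over the genes tested, so the brightest genes weigh most in them.

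The pairing of replicate numbers was checked by correlating the deviations from the stage means over all genes tested. Diestrus and metestrus arrays of the same number gave 0.62, 0.26 and 0.50. Diestrus replicate 3 with metestrus replicate 2 gave 0.46 and diestrus replicate 2 with metestrus replicate 3 gave 0.22, so within the second array set the numbers show little. Replicate 1 against the others gave -0.55 to -0.28.

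Named genes were all genes called without a block, up to 12 in each direction called with the array set as a block, Esr1, Pgr and Ovgp1, and up to 3 genes of lowest p in each of 27 function lists, of which those that bear on a described group are printed. The 42 lists and the comparison were chosen with earlier results of these data known. Alternatives covered blocks, array subsets, background correction, scaling, filter, offset, probe choice, array weights and each array left out.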

Additional observations from a re-analysis of the deposited data

How the results depend on the processing

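Without a block, 7 genes passed between diestrus and metestrus. With the array set as a block 34 passed, with the replicate block 30, and with array weights 38, and all 7 were among them each time. From the deposited values 33 passed with the array set as a block, the 7 among them, and 0 passed without a block in limma (46 at an unadjusted p under 0.05). From the 6 arrays alone, 0 passed without a block (206 at an unadjusted p under 0.05), 2 with the replicate block (Akr1c18 and H2-Ea) and 7 with the array set as a block, 5 of them shared. Fewer arrays leave fewer degrees of freedom in these fits. Leaving out each array in turn gave 1 to 13 genes without a block and, with the array set as a block, 18, 36 and 22 without diestrus replicates 1, 2 and 3 and 37, 25 and 23 without metestrus replicates 1, 2 and 3. The 6 settings with that block were chosen after seeing the data. Replicates 2 and 3 alone gave 9 genes (4 shared, with Akr1c18, Gulo, H2-Ea and Hsd17b7), and the settings of background correction, scaling, filter, offset and probe choice gave 6 to 9. No difference that passed changed direction. Of 882 list medians over the settings, 80 moved by more than the spread between replicates. Averaging all probes of a gene ended the call of Mup2 (0.78, adjusted p = 0.27), as a probe that was not detected entered the mean, and that of H2-K1 (0.66, adjusted p = 0.24). Median scaling also ended the call of H2-K1 (1.13, adjusted p = 0.059), while Cyp4f18 passed under it, so its count of 7 is not the same 7 genes. Dim genes are limited by background: a probe not detected at a stage has only a bound there.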
